A study of Homo sapiens with 12 samples.

Results

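The 8 genes described here encode enzymes that process nucleotides, NAD and peptides at the cell surface: CD38, BST1, ENTPD1, NT5E, ADA, ENPP1, DPP4 and ANPEP. They are 8 of the 18417 genes measured, and each had 1 probe set annotated to it alone, so that no choice between probe sets arose. They were chosen by their log2 levels in the U-H01 arrays of the 2 labels, with earlier results of these arrays in view, in which CD38, ENTPD1 and DPP4 differed greatly. The other 5 are related enzymes. For comparisons that involve those labels, the values of these 8 enzymes are therefore a description with no test.

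RNA was measured on 12 single-colour arrays of 2 lymphoma lines carrying doxycycline-inducible short hairpins, to ask how loss of single NF-kB subunits changes expression. U-H01 comes from a Hodgkin lymphoma, and HBL-1 from a diffuse large B-cell lymphoma of ABC-like type. Per the labels' protocols, both lines were transduced with hairpins against RelB and cRel, each target with 2 sequences, and part of each population received doxycycline at 2 time points. The groups were U-H01 arrays labelled induced (n = 4) and U-H01 uninduced (n = 4), each with populations B1 and B2, and HBL-1 induced (n = 2) and HBL-1 uninduced (n = 2), both of population C. All 4 groups thus carry a hairpin vector, and the labels give no array of untransduced cells among these 12. Which hairpin B1, B2 and C carry is not spelled out, although the B2 arrays labelled induced are marked Seq2, and nothing tells whether replicate arrays stem from different cultures. P-values may thus measure technical spread only.

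The enzymes form linked routes. ENTPD1 (CD39) strips phosphates from ATP and ADP outside the cell, NT5E (CD73) turns the resulting AMP into adenosine, and ADA turns adenosine into inosine. ADA is mainly a cytosolic enzyme, and in humans it also docks on DPP4 (CD26), a serine protease that removes dipeptides from the ends of chemokines and hormones. CD38 and its paralog BST1 (CD157) consume NAD to make ADP-ribose and its cyclic form. ENPP1 cleaves ATP to AMP and pyrophosphate, and ANPEP (CD13) is an aminopeptidase known from myeloid and epithelial cells. CD38 is a marker of plasma cells and activated lymphocytes, and CD39 with CD73 is known for supplying immunosuppressive adenosine in tumours.

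The U-H01 arrays of the 2 labels stood apart from each other before any gene was considered. Within groups, array correlations over all genes were 0.991 to 0.996. Between U-H01 arrays labelled induced and uninduced they were 0.893 to 0.910, while with HBL-1 the arrays labelled induced gave 0.903 to 0.915 and the uninduced U-H01 ones 0.886 to 0.898. A check for mixed-up samples used 6 genes that a donor's genome either has or lacks. On it the 8 U-H01 arrays split 4 against 4, while 0 of 4 HBL-1 arrays stood apart. For the level of any other gene, the parts of doxycycline and of a difference between the cells themselves cannot be told apart in U-H01. The U-H01 arrays marked as induced are therefore called labelled induced. RELB lay at 7.14 to 7.39 in U-H01 arrays labelled induced and at 7.23 to 7.54 in uninduced ones, a log2 difference of -0.15 ± 0.09 (SE) that did not pass (limma adjusted p = 0.188). REL differed the other way in U-H01, by 0.20 ± 0.09, and did not pass either (adjusted p = 0.0862). REL lay at 9.13 and 9.37 in induced HBL-1, against 9.70 and 9.78 in uninduced HBL-1, a difference of -0.49 ± 0.13 that also missed the threshold (adjusted p = 0.103), as did RELB in HBL-1 at -0.19 ± 0.12 (adjusted p = 0.705).

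Marker genes were read beside the enzymes. Of 9 measured B-cell markers, 6 lay above the array median on every U-H01 array labelled induced, 6 on every uninduced U-H01 array, and 9 in both HBL-1 groups. The summed log2 level of that list was 66.7 to 70.6 in U-H01 arrays labelled induced, 57.7 to 59.1 in uninduced U-H01, 91.1 in both induced HBL-1 arrays and 91.6 to 92.0 in uninduced HBL-1. The Hodgkin marker TNFRSF8 (CD30) was at 11.6 ± 0.10 (SD, n = 4) in U-H01 arrays labelled induced and at 6.89 ± 0.21 (SD, n = 4) in uninduced U-H01. It averaged 6.63 in both HBL-1 groups. TRAF1 too was higher in U-H01 arrays labelled induced than in uninduced ones. The other 6 of the 8 Hodgkin Reed-Sternberg markers had lower means in arrays labelled induced. CD274 (PD-L1) was at 4.11 ± 0.13 in arrays labelled induced and 9.91 ± 0.51 in uninduced U-H01 (SD, n = 4 each). Of the 8, 5 lay above the median on every array labelled induced and 7 on every uninduced U-H01 array, with sums of 52.5 to 54.4 and 61.7 to 63.5. The sums in HBL-1 were 50.0 to 50.7 when induced and 50.0 to 50.4 when uninduced. Plasma-cell markers numbered 7 of 9 in U-H01 arrays labelled induced and 6 in uninduced ones, with sums of 76.5 to 79.9 and 64.6 to 66.9. They numbered 8 in both HBL-1 groups, with sums of 71.5 to 73.2 when induced and 72.7 to 73.7 when uninduced. Of 11 T and NK cell markers, CD7 and NKG7 were above the median in each group, with sums of 55.3 to 57.2 in U-H01 arrays labelled induced and 54.5 to 55.9 in uninduced U-H01. Of 8 myeloid markers only CD68 passed that level, in the U-H01 arrays labelled induced (list sums of 34.8 to 36.4, against 33.7 to 35.6 in uninduced U-H01). Of 10 stromal, endothelial and epithelial markers, 3 did so in both U-H01 groups and 4 in both HBL-1 groups. The part of these marker differences in the enzyme levels was not tested, and in bulk RNA fewer cells of a type and less RNA per cell cannot be told apart.

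Of CD38 and BST1, the NAD-consuming enzymes described here, it was CD38 that stood apart between groups. Its log2 level was 11.07 and 11.40 in B1 and 10.96 and 11.35 in B2 in the U-H01 arrays labelled induced, against 4.64 and 4.55 in B1 and 4.59 and 4.53 in B2 in uninduced U-H01. Induced HBL-1 arrays had 6.63 and 7.09 and uninduced ones 6.93 and 6.70. The groups of U-H01 did not overlap, HBL-1 lay between them without touching either, and the HBL-1 groups overlapped. The difference between U-H01 labels was 6.37 to 6.85 in the 4 pairs of population and time point, and the mean of 6.62 amounts to 98.3-fold. The array lower quartiles were 4.18 to 4.28 and the medians 5.79 to 5.88. The level in uninduced U-H01 was thus close to the low end of the scale, where this fold can understate the difference.

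BST1, which directly neighbours CD38 in the gene order of chromosome 4 and makes the same products, did not share this pattern. Its level was 4.74 to 4.92 in U-H01 arrays labelled induced, 4.68 to 4.82 in uninduced U-H01, 4.85 and 4.75 in induced HBL-1 and 4.95 and 4.79 in uninduced HBL-1. All 4 groups overlapped, and every array was below its median. The pair differences in U-H01 ran from -0.08 to 0.23.

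ENTPD1 separated uninduced U-H01 from everything else. Its level was 10.53, 10.28, 10.21 and 10.45 in the U-H01 arrays labelled induced, against 3.84, 4.49, 4.61 and 4.88 in uninduced U-H01. Induced HBL-1 arrays had 10.49 and 10.72 and uninduced ones 10.22 and 10.30. The U-H01 arrays labelled induced thus overlapped both HBL-1 groups, while no uninduced U-H01 array exceeded 4.88. The pair differences in U-H01 were 5.57 to 6.69, with a mean of 5.91 or 60.1-fold. The uninduced level spans the array lower quartiles, so this fold too can understate the difference. Uninduced U-H01 arrays also spread the widest among themselves for this gene, over 1.03 log2 units near the low end of the scale.

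NT5E, the enzyme that would take AMP from ENTPD1 to adenosine, stayed low on every array. It lay at 3.81 to 4.06 in U-H01 arrays labelled induced, 3.90 to 3.96 in uninduced U-H01, 4.20 and 3.82 in induced HBL-1 and 4.17 and 3.92 in uninduced HBL-1. All groups overlapped, and its whole range over the 12 arrays was 0.39. Such levels near the array lower quartile cannot be separated from background on these deposited values.

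ADA, which removes adenosine, was measured well above the median in every group, in steps. Its level was 9.25, 9.06, 9.13 and 9.47 in U-H01 arrays labelled induced and 10.52, 10.48, 10.65 and 10.49 in uninduced U-H01. In HBL-1 it was 7.61 and 6.97 in induced arrays and 7.28 and 7.33 in uninduced ones. Uninduced U-H01 was highest, U-H01 labelled induced next and HBL-1 lowest, and only the 2 HBL-1 groups overlapped. In each of the 4 U-H01 pairs the array labelled induced was lower, by differences of -1.02 to -1.52, a mean of -1.31 or 2.48-fold. U-H01 arrays labelled induced were above the HBL-1 arrays by 1.93, and uninduced U-H01 by 3.24, on the log2 scale.

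ENPP1, which also releases AMP from ATP, showed a small step at the low end of the scale. Levels were 3.53 to 3.82 in U-H01 arrays labelled induced, 3.91 to 4.21 in uninduced U-H01, 3.64 and 3.48 in induced HBL-1 and 3.60 and 3.76 in uninduced HBL-1. Uninduced U-H01 did not overlap the other 3 groups, which overlapped each other. The pair differences in U-H01 were -0.09 to -0.68, with a mean of -0.42, and all 12 arrays were far below the array medians.

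DPP4 was measured above the median in uninduced U-H01 alone. Its level was 4.32 and 4.01 in B1 and 3.93 and 3.93 in B2 in the U-H01 arrays labelled induced, against 10.83 and 10.88 in B1 and 10.52 and 10.31 in B2 in uninduced U-H01. Induced HBL-1 arrays had 4.13 and 3.90 and uninduced ones 3.73 and 3.97. The 3 low groups overlapped each other, and uninduced U-H01 lay 5.99 above the highest of their arrays. The pair differences were -6.38 to -6.87, a mean of -6.59 or 96.2-fold. The 3 low groups lie around the array lower quartiles, where levels cannot be separated from background, so this fold too can understate the difference. DPP4 and ENTPD1 thus ran opposite ways between the U-H01 labels, and U-H01 arrays labelled induced overlapped HBL-1 in both genes, but lay above it in CD38 and ADA.

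ANPEP, the aminopeptidase, lay at 5.10 to 5.32 in U-H01 arrays labelled induced, 4.96 to 5.10 in uninduced U-H01, 4.92 and 5.02 in induced HBL-1 and 5.22 and 4.80 in uninduced HBL-1. The U-H01 groups were apart by a gap of only 0.0015, and both overlapped HBL-1. All arrays were below their medians. Counting all 8 enzymes, the U-H01 arrays of the 2 labels did not overlap in 6, of which CD38, ENTPD1 and ANPEP were higher and ADA, ENPP1 and DPP4 lower in arrays labelled induced. Over all genes 41.1% did not overlap in that comparison, which chose the genes, so the count is not read further. Against all HBL-1 arrays, 2 enzymes did not overlap and were higher in U-H01 labelled induced (39.7% of all genes did not overlap). For uninduced U-H01 against HBL-1, 3 were higher and 2 lower without overlap, beside 44.9% of all genes.

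**Figure D1:**
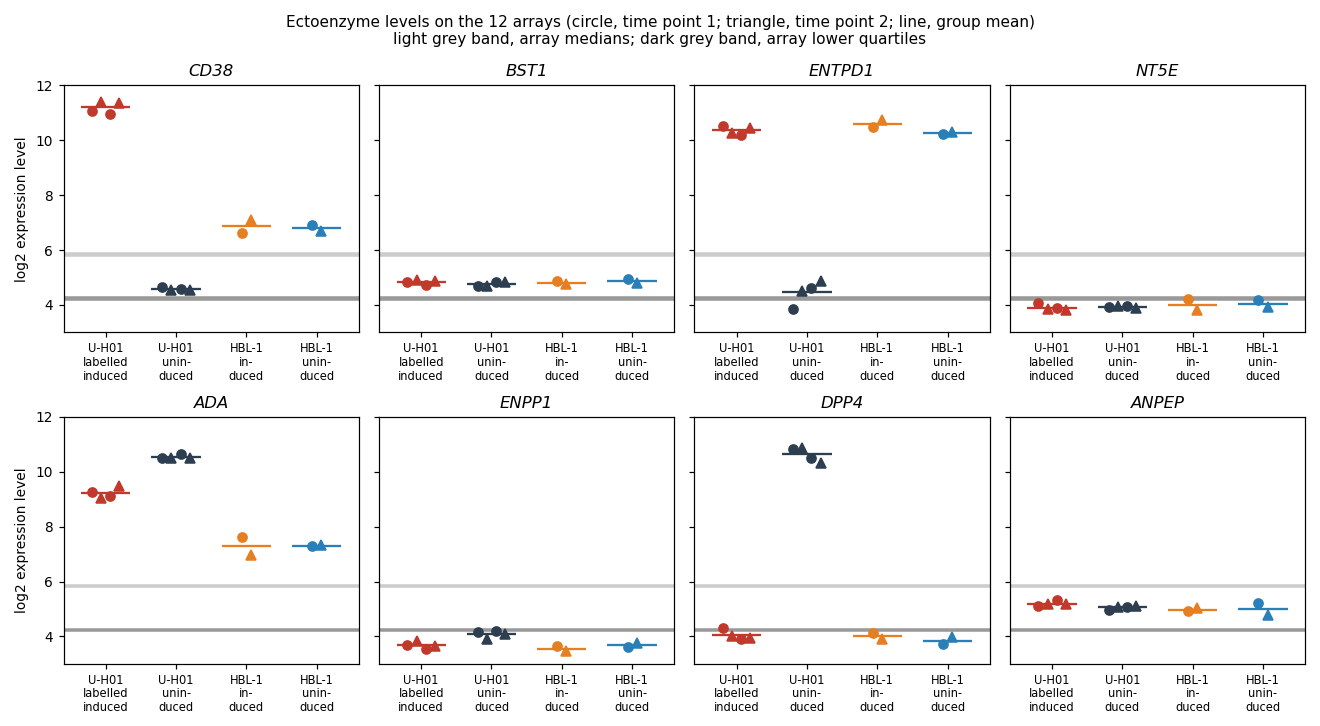
Log2 expression level of each of the 8 enzymes (panels) on every array, by group, with circles for time point 1, triangles for time point 2, a line at the group mean and grey bands for the array medians and lower quartiles. CD38 sits at 10.96 to 11.40 in U-H01 arrays labelled induced and DPP4 at 10.31 to 10.88 in uninduced U-H01, while BST1, NT5E, ENPP1 and ANPEP stay below the medians on all 12 arrays.

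The stretches before the start sites of CD38, DPP4 and ADA are shown because these genes went opposite ways between the U-H01 labels and the study concerns NF-kB. Each is the 250 bases before the gene's start in RefSeq, build GRCh38.p14, written 5′ to 3′ on the gene's own strand, with capitals where a broad NF-kB-like pattern, GGGNNNNNCC on either strand, matched.
CD38, chr4:15778078-15778327, forward strand: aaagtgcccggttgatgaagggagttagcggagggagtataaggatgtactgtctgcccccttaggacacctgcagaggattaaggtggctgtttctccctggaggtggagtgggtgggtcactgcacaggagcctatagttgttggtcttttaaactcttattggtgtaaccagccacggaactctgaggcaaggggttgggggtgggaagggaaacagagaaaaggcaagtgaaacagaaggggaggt
DPP4, chr2:162074216-162074465, reverse strand: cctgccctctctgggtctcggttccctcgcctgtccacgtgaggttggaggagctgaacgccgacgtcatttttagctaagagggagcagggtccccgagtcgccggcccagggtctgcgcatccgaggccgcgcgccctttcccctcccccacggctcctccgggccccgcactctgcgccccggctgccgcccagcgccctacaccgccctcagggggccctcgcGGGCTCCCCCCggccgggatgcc
ADA, chr20:44651700-44651949, reverse strand: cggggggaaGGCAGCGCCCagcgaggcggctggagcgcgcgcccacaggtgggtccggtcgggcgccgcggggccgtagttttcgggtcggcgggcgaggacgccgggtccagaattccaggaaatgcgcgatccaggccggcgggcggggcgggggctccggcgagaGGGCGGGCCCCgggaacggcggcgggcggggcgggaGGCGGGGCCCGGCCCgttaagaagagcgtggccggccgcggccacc
CD38 held 0 matches, DPP4 held 3 that overlap each other on both strands, and ADA held 7, some of them overlapping. The pattern is loose: 54.4% of the 35116 promoter stretches of this length in the table hold at least 1. The CD38 stretch had 3 CG dinucleotides, the DPP4 stretch 26 and the ADA stretch 41, against a median of 11 over that table. ENTPD1 is listed with several start sites and is not shown. A match is a description of letters, and its absence says nothing of binding elsewhere.

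None of the 8 enzymes passed the test between induced and uninduced HBL-1, a comparison that did not choose them. limma called 0 of 8, beside 0.939% of all 18417 genes (173), so the 0 says little by itself. Of the 8, 0 had an unadjusted p under 0.05. ENTPD1 had the largest difference, at 10.49 and 10.72 in induced arrays and 10.22 and 10.30 in uninduced ones, which gave 0.35 ± 0.18 (SE, n = 2 per group) with a 95% interval of -0.04 to 0.73 and an adjusted p of 0.571. Its arrays did not overlap, as in 41.3% of all genes with 2 arrays a group, and it was the only enzyme of which this held. DPP4 differed by 0.16 ± 0.14 with an interval of -0.13 to 0.46 (adjusted p = 0.819). CD38 differed by 0.05 ± 0.17 with an interval of -0.31 to 0.41 (adjusted p = 0.977), and its pairs pointed opposite ways at -0.30 and 0.40.

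The remaining enzymes gave intervals of similar width in HBL-1. ADA differed by -0.01 ± 0.17, with an interval of -0.38 to 0.36, and its pairs were at 0.33 and -0.36. NT5E, BST1, ENPP1 and ANPEP differed by -0.03, -0.07, -0.12 and -0.04, with adjusted p of 0.864 or more. The bound farthest from 0 among the 8 intervals was the 0.73 of ENTPD1. With the HBL-1 arrays fitted without any U-H01 array, the count of enzymes called was again 0.

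**Figure D2:**
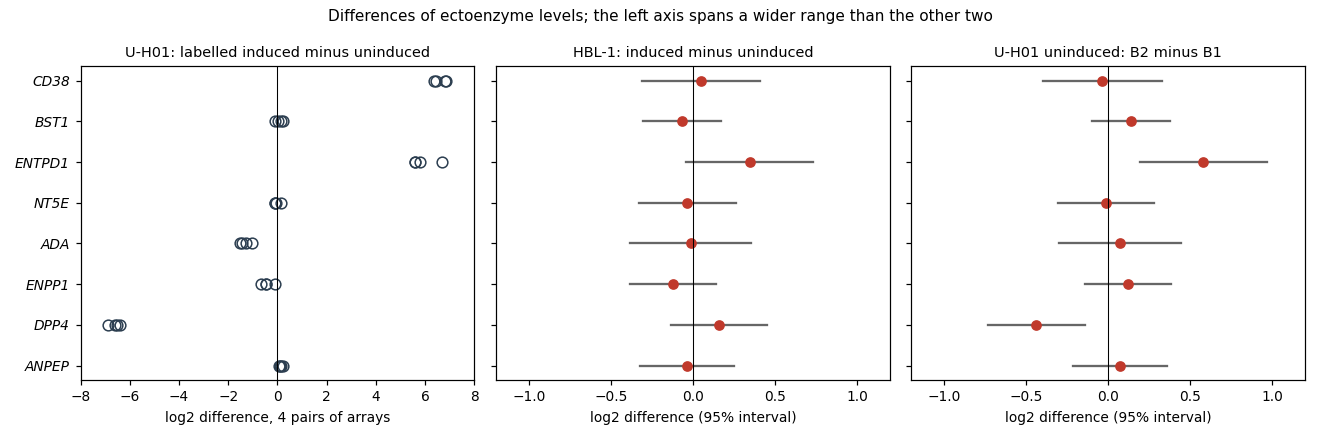
Log2 differences of the 8 enzymes, as the 4 pairs of arrays for U-H01 labelled induced minus uninduced (left, open circles) and as fitted differences with 95% intervals for HBL-1 induced minus uninduced (middle) and for population B2 minus B1 in uninduced U-H01 (right). The left axis spans a wider range; in HBL-1 every interval includes 0, and in B2 minus B1 those of ENTPD1, from 0.19 to 0.97, and DPP4, from -0.73 to -0.14, do not, although neither passed the adjusted threshold.

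No enzyme passed the test between the 2 U-H01 populations, where so few of all genes were called that a 0 among 8 says little. Within the uninduced arrays 0 of 8 passed between B2 and B1, beside 3.48% of all genes. DPP4 was at 10.52 and 10.31 in B2 and at 10.83 and 10.88 in B1, a difference of -0.44 ± 0.14 (n = 2 per group, limma adjusted p = 0.106). ENTPD1 was at 4.61 and 4.88 in B2 and at 3.84 and 4.49 in B1, a difference of 0.58 ± 0.18 (adjusted p = 0.104) that passed only without U-H01 uninduced replicate 2, the second B1 array (0.90, adjusted p = 0.0300). Within the arrays labelled induced 0 of 8 passed, beside 0.0977% of all genes, and the smallest adjusted p was 0.762. The difference between labels was itself not called as unequal in B2 and B1 for any of the 8, beside 0.614% of all genes, with ENTPD1 at -0.65 ± 0.26 (adjusted p = 0.352).

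FAP, a relative of DPP4 that lies past GCG from it on chromosome 2, did separate the populations. It was at 8.26 and 8.09 in uninduced B2 and at 8.97 and 8.91 in uninduced B1, a difference of -0.76 ± 0.12 (limma adjusted p = 0.00253), a call that did not hold once U-H01 uninduced replicate 4 was left out (adjusted p = 0.0616). The difference between labels was unequal in B2 and B1 for FAP, by 0.90 ± 0.17 (limma adjusted p = 0.0232), a call lost in 6 of the alternatives. With FAP near the low end of the scale in arrays labelled induced, this value mostly repeats the uninduced difference and is not a separate result. FAP, which encodes a surface protease of activated fibroblasts, was at 3.11 to 3.37 in U-H01 arrays labelled induced, against 8.09 to 8.97 in uninduced U-H01. HBL-1 arrays had 3.37 and 3.25 when induced and 3.32 and 3.42 when uninduced. GCG, the glucagon gene between DPP4 and FAP, stayed at 3.16 to 3.64 on all 12 arrays.

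Nor did any enzyme pass between the time points. Over U-H01, 0 of 8 enzymes and 0 of 18417 genes (0%) changed between time point 2 and time point 1 by limma, with 1774 genes at an unadjusted p under 0.05. CD38 in the arrays labelled induced was at 11.07 and 10.96 at time point 1 and at 11.40 and 11.35 at time point 2. A test within these arrays, added after this was seen, gave 0.37 ± 0.15 (n = 2 per time point, limma adjusted p = 0.373), beside 0% of all genes called and 2212 at an unadjusted p under 0.05. The same step in uninduced U-H01 was -0.07 ± 0.15 (adjusted p = 0.999), and the difference between the 2 steps, 0.44 ± 0.21, did not pass (adjusted p = 0.950). In uninduced U-H01 ENTPD1 was higher at time point 2 by 0.45 ± 0.14, with an adjusted p of 0.999 by limma.

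Relatives of the nucleotide-cutting enzymes were called in both directions in U-H01. Of 17 measured relatives of ENTPD1 and ENPP1, 3 were higher and 3 lower in arrays labelled induced than in uninduced ones. The other 11 did not pass. Beside this 46.3% of all genes were called (22.6% higher, 23.7% lower), and the list's median was -0.05 against 0.03 over all genes. ENPP3, a pyrophosphatase known from basophils, was at 3.97 ± 0.08 in arrays labelled induced and 8.30 ± 0.05 in uninduced U-H01 (SD, n = 4 each). The difference was -4.33 ± 0.08 (SE). In HBL-1 ENPP3 was at 4.05 when induced and 3.93 when uninduced. ENTPD7 fell by 1.81 on the log2 scale, while ENTPD5, a nucleotidase of the endoplasmic reticulum, rose by 1.19 and ENPP6 rose by 0.82. In HBL-1 0 of the 17 passed, where only 0.939% of all genes were called, so a 0 in so short a list says little.

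Genes that handle adenosine and its precursors went both ways. Of 23 measured, 8 were higher and 4 lower in U-H01 arrays labelled induced than in uninduced ones, and 11 did not pass. Beside this 46.3% of all genes were called, and the list's median was 0.19. SLC29A1, a nucleoside transporter, was higher in arrays labelled induced by 0.86, and the cytosolic nucleotidase gene NT5C1A by 1.36. NT5C3B was lower by 1.55 and NT5C2 by 0.47. In HBL-1 0 of 23 passed, beside 0.939% of all genes. PNP, the phosphorylase that acts on the inosine made by ADA, was higher in B2 than in B1 among uninduced U-H01 arrays by 0.79 ± 0.14 (limma adjusted p = 0.00546), a call lost without uninduced replicates 1, 2 or 3 (adjusted p up to 0.0609).

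Receptors for these nucleotides had 2 calls in U-H01. Of 17 measured purinergic receptors and ATP release genes, 0 were higher and 2 lower in arrays labelled induced, with a median of 0.04. Over all genes 22.6% were higher and 23.7% lower. P2RX7, an ATP-gated channel, was at 4.55 ± 0.23 in arrays labelled induced and 6.77 ± 0.65 in uninduced U-H01 (SD, n = 4 each). The channel gene PANX1 was lower by 0.35 in arrays labelled induced. P2RX7 also separated the populations, with a difference of -1.13 ± 0.14 between uninduced B2 and B1 (limma adjusted p = 0.000573). P2RX4, a channel of the same family, differed likewise by -0.97 ± 0.16 (limma adjusted p = 0.00460), a call lost without uninduced replicates 1 or 4 (adjusted p up to 0.0731). The difference between labels was unequal in B2 and B1 for P2RX4 by 1.12 ± 0.23 (limma adjusted p = 0.0396) and for P2RX7 by 0.94 ± 0.20 (limma adjusted p = 0.0482). These calls were lost in 13 and 14 of the alternatives. P2RX7 lay near the low end of the scale in arrays labelled induced, so its value mostly repeats the uninduced difference. In HBL-1 0 of 17 passed, beside 0.939% of all genes.

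Of 29 measured genes of NAD synthesis and consumption, 12 were higher and 8 lower in U-H01 arrays labelled induced than in uninduced ones. The other 9 did not pass. Beside this 46.3% of all genes were called, and the list's median was 0.13. QPRT, which makes NAD precursors from quinolinate, was at 9.36 ± 0.38 in arrays labelled induced, against 7.14 ± 0.31 in uninduced U-H01 (SD, n = 4 each). The mitochondrial sirtuin gene SIRT5 was higher in arrays labelled induced by 0.79. PARP9, an interferon-induced ADP-ribosyltransferase family member, fell by 4.62, and the mitochondrial NAD kinase gene NADK2 fell by 2.05. In uninduced B2 against B1, NMNAT1 and SIRT2 differed by -0.48 and -0.43, calls lost in 10 and 9 of the alternatives. In HBL-1 0 of 29 passed, beside 0.939% of all genes.

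Peptidases related to DPP4 and ANPEP were mixed as well. Of 24 measured, 8 were higher and 4 lower in U-H01 arrays labelled induced than in uninduced ones, and 12 did not pass. Beside this 46.3% of all genes were called, and the list's median was 0.10. In HBL-1 0 passed, beside 0.939% of all genes. FAP, described above, was lower in U-H01 arrays labelled induced by 5.27, and XPNPEP1, an aminopeptidase, by 0.99. PREP, a cytosolic prolyl peptidase, was higher by 1.43 and DPP3, another cytosolic peptidase, by 1.05. ECE1, which activates endothelin, was lower in uninduced B2 than in B1, at a difference of -0.65 ± 0.15 (limma adjusted p = 0.0264) that was lost in 6 of the alternatives.

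Chemokines that DPP4 is known to trim were called in a share near that of all genes. In U-H01, 5 of the 10 on the array were lower and 0 higher in arrays labelled induced, with a median of -0.45. Beside this 46.3% of all genes were called (22.6% higher, 23.7% lower). CCL5 was at 5.96 ± 0.12 in arrays labelled induced, against 9.21 ± 0.07 in uninduced U-H01 (SD, n = 4 each). CCL3 fell by 2.75, but its near-identical gene copies make that value uncertain. In HBL-1 0 of 10 passed, beside 0.939% of all genes. Among uninduced U-H01 arrays CXCL10 was higher in B2 than in B1 by 1.27 ± 0.20 (limma adjusted p = 0.00240).

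Surface partners of CD38, DPP4 and ADA included the only call of the 7 lists in HBL-1, where 0.939% of all genes were called. CXCR4, a chemokine receptor reported to associate with DPP4, was at 9.29 and 9.42 in induced HBL-1 and at 8.28 and 8.44 in uninduced HBL-1, a rise of 0.9997 ± 0.16 (n = 2 per group, limma adjusted p = 0.00437). The call was lost without HBL-1 uninduced replicate 1 (adjusted p = 0.0740) or induced replicate 2 (adjusted p = 0.0970). In U-H01 4 of 9 measured partners were higher and 3 lower in arrays labelled induced, beside 46.3% of all genes called, with a median of 0.14. PECAM1, the CD31 ligand of CD38, was at 5.04 ± 0.08 in arrays labelled induced and 10.6 ± 0.20 in uninduced U-H01 (SD, n = 4 each), opposite to CD38. CR2, a complement receptor, was higher in arrays labelled induced by 4.44 and CAV1 by 3.44. IGF2R, a receptor that binds DPP4, was lower by 1.20.

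**Figure D3:**
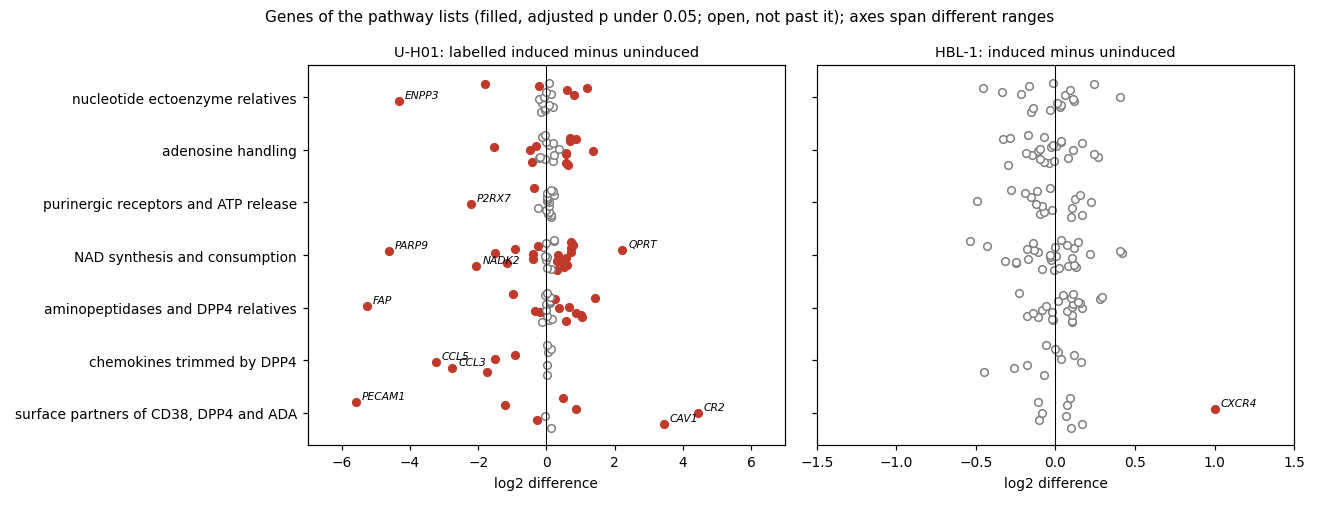
Log2 difference of each gene of the 7 pathway lists (rows) between U-H01 arrays labelled induced and uninduced ones (left) and between induced and uninduced HBL-1 arrays (right), with filled points past an adjusted p of 0.05. In U-H01 filled points lie on both sides of 0, except in the purinergic and chemokine lists, where all lie below 0, and in HBL-1 CXCR4 is the only filled point.

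The genes closest to CD38, ENTPD1, DPP4 and ADA over the 12 arrays were found by the root mean square difference of log2 levels after centring each gene on its own mean. SLAMF6, a lymphocyte receptor, was closest to CD38 at 0.29, followed by HLA-DRB5 at 0.68, whose probes may also read its near-identical relatives, and DRAM1 at 0.69. ENTPD1 was followed by CD79A, which signals for the B-cell receptor, at 0.39, COBLL1 at 0.43 and the sialyltransferase gene ST6GAL1 at 0.48. CD79A was at 11.04 ± 0.26 (SD, n = 4) in U-H01 arrays labelled induced and 5.73 ± 0.13 (SD, n = 4) in uninduced U-H01, with 11.3 in both HBL-1 groups. DPP4 was followed by IL13RA1, a cytokine receptor chain, at 0.21, the monoamine oxidase gene MAOA at 0.21 and CYP1B1 at 0.22. ADA was followed by CD200R1 at 0.20, NFE2L3 at 0.23 and APOL6 at 0.24. The other 4 enzymes spanned under 2 log2 units over the arrays and were not matched.

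**Figure D4:**
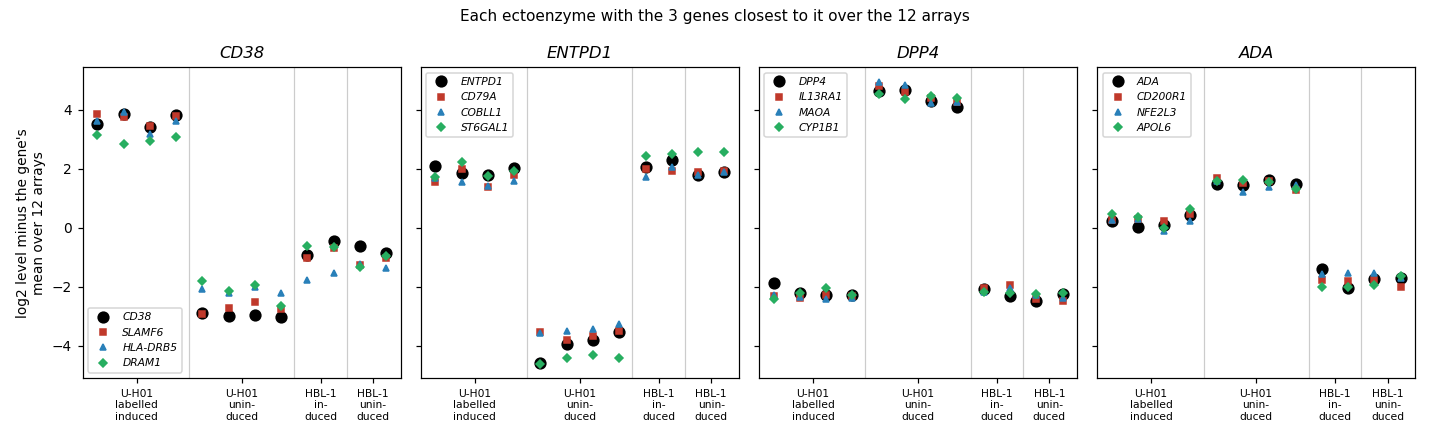
Log2 level minus the gene's mean over 12 arrays for CD38, ENTPD1, DPP4 and ADA (black) and the 3 genes closest to each (coloured symbols), on each array, by group. The closest genes of DPP4 overlie it at 0.21 to 0.22, whereas HLA-DRB5 and DRAM1 lie above CD38 in uninduced U-H01.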

How the data were processed

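Genome-wide RNA levels were measured on 12 single-colour arrays with biotin label. The authors deposited log2 expression values per probe set, and RMA and Partek are the tools listed, per the submitters' processing notes, with versions not given in the sources used here. RMA brings the arrays to like distributions, so a shift common to all genes would not show. The table holds 33297 probe sets. Per the platform annotation 19460 have 1 gene symbol, 1754 several and 12083 none. Those with 1 symbol were used, taking for each gene the probe set with the highest mean over 12 arrays, which left 18417 genes. Entrez identifiers of 19429 probe sets matched RefSeq genes of GRCh38.p14, and 0 symbols changed. No columns were left out, and 0 pairs of arrays held identical values.

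Group means of the populations B1, B2 and C, each induced and uninduced, were fitted with limma 3.58.1 in R 4.3.3 over all 12 arrays, so that HBL-1 tests borrow their spread mostly from U-H01. P-values were adjusted by Benjamini-Hochberg over all genes, with a threshold of 0.05. The time point test added a term for each line. The fit was tested on simulated data. Of 67 genes changed by 0.5 log2 units, it recovered 22 in HBL-1 and 3 in the test of unequal differences between B2 and B1. Of 67 changed by 1, it recovered 59 and 38. Fixed rules named all 8 enzymes, up to 2 list genes each way and the 3 closest genes of each enzyme spanning 2 log2 units. The enzymes and the lists were chosen with earlier results of these data known. The pairing rests on the labels' protocols, by which induced and uninduced cells were portions of the same transduced population. For U-H01 this is uncertain, since its 8 arrays split 4 against 4 in the check for mixed-up samples. Whether its pairs were such portions was not tested further. Deviations of such pairs from their group means correlated at 0.14 and -0.03 in B1, 0.10 and 0.03 in B2 and 0.10 in C. Alternatives were a replicate block, renormalization, other gene sets, variance options, each line alone, time point terms (added after the data were seen) and leaving out each array. The number of arrays limits the precision.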

Additional observations from a re-analysis of the deposited data

Results flagged for a closer look

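ANPEP in uninduced U-H01 was at 4.96 on replicate 1 (population B1, time point 1), against 5.08 to 5.10 on the other 3 arrays, a gap large for the group's range. Chance sets apart about 1 in 20 groups of this size, and each of the 8 enzymes was scanned in both U-H01 groups, so such a flag is not unusual. All 4 levels lie below the array medians, and the gap of 0.0015 between the U-H01 groups for this gene does not rest on that array, since it is the lowest.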

How the results depend on the processing

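The labelled U-H01 and between-line differences of the 8 enzymes moved by less than the spread between arrays in every alternative run, although near-0 differences such as that of BST1 between U-H01 labelled induced and HBL-1 changed sign. The count of enzymes called was 0 in each alternative run in HBL-1 and between the time points. It was also 0 in each for populations labelled induced and for the difference between B2 and B1. The replicate block, run for HBL-1 and for that difference, gave 0. For uninduced B2 against B1 the count was 0 to 1 with 1 array left out, the 1 being ENTPD1. Of the enzymes, the run on genes above the median level kept only CD38, ENTPD1 and ADA. It left out DPP4, NT5E, BST1, ENPP1 and ANPEP, so its 0 does not cover them. Over all genes, the HBL-1 count was 173, 195 with the replicate block, 107 with all probe sets tested and 39 to 251 with 1 array left out, lowest without induced replicate 2 and also low without uninduced replicates 1 (62) or 2 (69). For uninduced B2 against B1 it was 640, 276 with all probe sets, 425 with U-H01 alone and 107 to 825 with 1 array left out, low without any uninduced U-H01 array. For B2 against B1 labelled induced it was 18, 9 above the median level, 10 with all probe sets and 13 to 103 with 1 array left out, the highest without U-H01 induced replicate 4, with 48 and 51 without replicates 1 and 2. The count of unequal differences was 113, 33 with all probe sets, 194 with trend and robust options, 66 with U-H01 alone and 40 to 225 with 1 array left out, low without any uninduced U-H01 array and highest without U-H01 induced replicate 1. The U-H01 count between labels was 8520, and 12905 with all probe sets, of which more were tested. The replicate block changed no call of an enzyme; among list genes it ended that of P2RX7 as unequal between populations (adjusted p = 0.0534). Over the 8 list genes called in uninduced B2 against B1, calls were lost 31 times, and CXCL10 and P2RX7 kept theirs in each alternative run. The cause of these shifts was not tested. Every enzyme has 1 probe set, so no other could be tried, and levels near the array lower quartile limit what can be said of NT5E and ENPP1, and of the low groups of CD38, ENTPD1 and DPP4.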
